A study of Mus musculus with 2 samples.

Results

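The mitosis genes are 36 mouse genes whose products build the spindle, condense and hold the chromosomes, or drive a cell into and out of division. They were taken as a list of names and not by a cut on measured values, though earlier results of these data were known. All 36 were found among the 53380 features of the deposited matrices. Cells in the G2 phase raise these transcripts together, and most are destroyed or shut off again in the next G1 phase, so that resting cells hold little of them. Endothelial cells, which line blood vessels, rarely divide in the adult nerve and divide again when vessels grow into a wound. In a dividing cell the kinase Cdk1 is switched on by cyclins, the chromosomal passenger complex corrects how chromosomes attach to the spindle, and the anaphase-promoting complex then has the cyclins degraded.

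The data were RNA counts of single cells from sciatic nerves of adult mice that carried the Cdh5(PAC)-CreERT2 driver and the R26-TomatoLSL reporter, so that cells expressing the endothelial gene Cdh5 were marked with tdTomato. Both groups carried these alleles, and the sort kept tdTomato-positive cells without the leukocyte marker CD45. The intact group was 1 library of pooled uninjured nerves, and the injured group was 1 library from the bridge region that forms at the lesion, taken 7 days post injury. With 1 library of pooled nerves per condition no test was possible, and the 95% intervals given below cover counting error only. Injury cannot be told apart from differences of animals, sort or sequencing run.

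The authors' cell table put cells into 9 endothelial classes, and 718 intact and 1274 injured endothelial cells were analysed, with 4542225 and 19989024 UMIs (unique molecules counted). Median depth was 4461 UMIs per cell in the intact library and 11684 in the injured one. The libraries shared 298 cell barcodes, and a cell was left out where its barcode had at least 5 times its UMIs in the other library, which took 100 intact and 48 injured endothelial cells. Among them were 48 intact EC_IMMAT, 17 intact EC_TIP and 47 injured EC_BAR cells, which left 4, 4 and 36 cells of these classes. The class named EC_PROLIF held 162 injured cells with a median of 24212.5 UMIs, 12.7% of the injured cells and 21.0% of their UMIs. Its summed level of 8 pan-endothelial markers was 4638 CPM (UMIs per 1000000), against 4874 to 7614 CPM in the other injured classes, and fibroblast and myeloid markers were at 43.8 and 6.66 CPM. In the intact library EC_PROLIF held 38 cells, and 27 of them were such shallow partners of deep injured barcodes, 20 of which were injured EC_PROLIF cells. Those 27 cells had a median of 677 UMIs and 6207 CPM of mitosis genes, and their injured partners had 5892 CPM. Of the 11 intact cells kept, 4 of 5670 to 9304 UMIs held 49 to 104 mitosis UMIs and 28 to 61 pan-endothelial marker UMIs. Another 2 deep cells held 2 mitosis UMIs each. The remaining 5 had 520 to 731 UMIs each, and 4 of them carried a barcode that the libraries shared and had no pan-endothelial marker UMI. 1 of these 4 held 151 myeloid marker UMIs. The sources used here do not give how the authors assigned the classes, so levels in EC_PROLIF against the other classes are a description.

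Many mitosis genes are known to share short promoter elements. The cell cycle genes homology region, searched here as TTTGAA or TTCGAA, is bound by the MuvB complex, and the CCAAT box is bound by NF-Y. RefSeq promoters of the build GRCm38.p6, from 250 bases before to 50 bases after the start of a gene, were given for 30 of the 36 genes, without Ccna2, Tpx2, Pbk, Kif20a, Aurkb and Smc4. A gene given more than 1 promoter counted where any of them held the motif. On either strand, 24 of the 30 (80.0%) held TTTGAA or TTCGAA, against 21.7% of 27025 genes. CCAAT stood in 25 of the 30 (83.3%) against 41.1%, and both stood in 22 of the 30 (73.3%) against 8.61%. In these spellings the motifs can overlap by no more than 1 end base, and none does in the sequences printed. A match is a description of the letters, not a binding site.

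The 150 bases before the start of 8 genes are printed 5′ to 3′ on the strand of the gene, because their values carry the results below, and capitals mark the motifs, with TTCAAA and ATTGG as their readings on the other strand. Top2a (chr11:99024190-99024339, minus strand), Cdk1 (chr10:69352913-69353062, minus strand), Ube2c (chr2:164769779-164769928, plus strand), Cdc20 (chr4:118437344-118437493, minus strand) and Smc2 (chr4:52439071-52439220, plus strand) show both motifs. Ccnb2 (chr9:70421555-70421704, minus strand) shows 3 CCAAT boxes here and has 2 of the other motif elsewhere in its 300 bases. Ccnb1 (chr13:100786487-100786636, minus strand) held CCAAT only, and Birc5 (chr11:117849087-117849236, plus strand) held neither motif.
Top2a: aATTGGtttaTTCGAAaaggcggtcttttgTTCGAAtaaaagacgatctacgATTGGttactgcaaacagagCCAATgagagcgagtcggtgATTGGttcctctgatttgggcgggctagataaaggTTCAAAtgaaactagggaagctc
Cdk1: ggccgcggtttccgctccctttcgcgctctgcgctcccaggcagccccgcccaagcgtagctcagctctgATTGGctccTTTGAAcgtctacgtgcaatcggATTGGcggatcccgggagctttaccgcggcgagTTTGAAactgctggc
Ccnb2: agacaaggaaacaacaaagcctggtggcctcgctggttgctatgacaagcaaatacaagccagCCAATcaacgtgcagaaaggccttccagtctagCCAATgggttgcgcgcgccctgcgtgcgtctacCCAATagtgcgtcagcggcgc
Ube2c: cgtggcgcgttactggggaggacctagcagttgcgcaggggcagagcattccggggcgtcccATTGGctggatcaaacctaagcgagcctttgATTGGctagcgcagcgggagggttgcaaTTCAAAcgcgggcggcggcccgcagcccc
Cdc20: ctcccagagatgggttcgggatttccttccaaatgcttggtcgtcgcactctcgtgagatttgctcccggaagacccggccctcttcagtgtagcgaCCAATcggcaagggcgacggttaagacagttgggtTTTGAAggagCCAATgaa
Smc2: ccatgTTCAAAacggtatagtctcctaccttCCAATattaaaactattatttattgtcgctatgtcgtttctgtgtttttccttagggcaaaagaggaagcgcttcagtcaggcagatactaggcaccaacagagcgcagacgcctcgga
Ccnb1: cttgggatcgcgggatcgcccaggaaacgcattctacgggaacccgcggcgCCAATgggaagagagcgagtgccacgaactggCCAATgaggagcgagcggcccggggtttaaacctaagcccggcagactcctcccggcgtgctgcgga
Birc5: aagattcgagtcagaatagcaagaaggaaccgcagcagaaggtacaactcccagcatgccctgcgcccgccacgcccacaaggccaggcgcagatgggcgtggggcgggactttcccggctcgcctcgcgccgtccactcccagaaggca

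Transcripts of the mitosis genes were far more abundant in the injured endothelium. Summed over the 36 genes they made up 309 CPM of intact and 1706 CPM of injured endothelial UMIs, a ratio of 5.52 (95% interval 5.23 to 5.82). In such sums alone, more cells of a dividing type and more RNA per cell cannot be told apart. Within EC_PROLIF the 36 genes stood at 6778 CPM (6047 to 7574) in the 11 intact cells kept. In its 162 injured cells they stood at 6437 CPM (6361 to 6514). The class held 46028 of the 4542225 intact endothelial UMIs and 21.0% of the injured ones. What part either had in the ratio was not tested. The chromatin protein gene Hmgb2 alone gave 662 of the 1405 intact UMIs of the 36 genes. The sum was also taken over 31 genes without Hmgb2, Smc2, Smc4, Cks2 and Top2a, which were left out by name. These 5 stood at 237 and 762 CPM, a ratio of 3.22 (3.03 to 3.43). Among them were the genes of lowest ratio, Smc4 (2.20) and Hmgb2 (2.70), so the ratio of the 31 depends on this choice. Intact level alone does not set the genes left out apart. Cks2 and Top2a had 45 and 18 intact UMIs, against 46 for Cenpa and 19 for Mki67, which were kept. The 31 genes stood at 72.7 and 944 CPM, a ratio of 13.0 (11.7 to 14.5). Of their 330 intact UMIs, 184 came from the 11 intact EC_PROLIF cells kept. The pooled intact level thus rests largely on few cells, and the intervals do not cover the spread between cells. With every cell of a shared barcode left out the ratio for the 36 genes was 4.55, and with the shallow partners put back it was 4.95.

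All 36 genes were at least 2-fold higher in the injured library on a scale with 5 CPM added to both values, a fold passed by 2.43% of the 22967 genes with a UMI. The median log2 ratio was 1.95 over the 36 genes and 0.01 over all genes. The count was 30 with cells thinned to 3000 UMIs, 31 with the mean of per-cell CPM, and 3 with equal weights for the classes of at least 20 cells in both libraries, which leave EC_PROLIF out. No mitosis gene was 2-fold lower, against 3.09% of all genes. A mean of 10 CPM or more was reached by 24 mitosis genes, all higher, where 4.79% of all 8268 such genes passed the fold upwards and 6.82% downwards. The interval of the plain ratio lay above 1 for each of the 36 genes, 24 genes had a ratio of at least 10, and the lowest was 2.20 for Smc4.

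**Figure D1:**
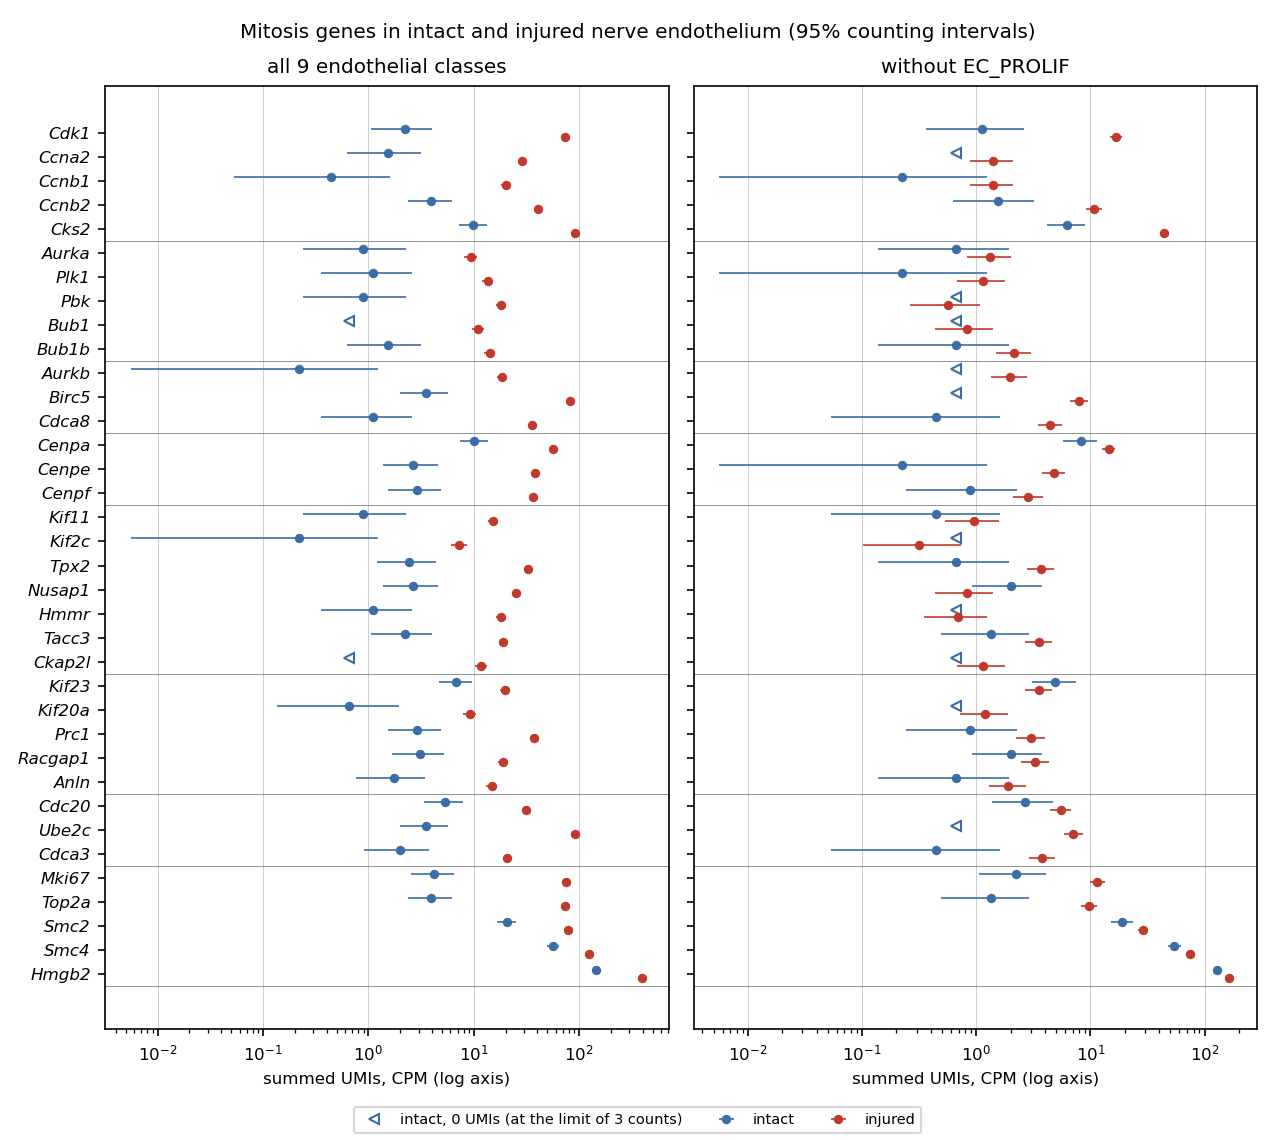
Summed level of each mitosis gene in CPM (log axis) in intact (blue) and injured (red) endothelium, over all 9 classes on the left and without EC_PROLIF on the right, with exact 95% Poisson intervals, open triangles at 3 counts for genes with no intact UMI, and grey lines between roles. On the left the intervals of the libraries stand apart for all 36 genes, and on the right for 17, of which Cdk1, Cks2, Birc5, Ube2c, Ccnb2, Top2a and Mki67 are at least 2-fold higher with 5 CPM added.

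The cyclins and Cdk1 carried a summed ratio of 14.1 (11.3 to 17.7), from 18.1 to 254 CPM. Cdk1 (ENSMUSG00000019942.13, chr10:69335146-69352938), the kinase that drives entry into mitosis, stood at 2.20 CPM in the intact and 72.5 CPM in the injured library, 32.9-fold (17.9 to 68.9). Ccna2, the cyclin of S phase and early mitosis, stood at 1.54 and 28.8 CPM, 18.7-fold. The B-type cyclins complete the switch into mitosis. Ccnb1 had 2 intact UMIs (0.440 CPM) and 20.2 CPM in the injured library, a ratio of 45.8 whose interval ran from 12.6 to 379. Ccnb2 stood at 3.96 and 40.7 CPM, 10.3-fold. Cks2 (chr13:51645232-51650660), a small protein that docks on cyclin-dependent kinases, stood at 9.91 and 91.9 CPM, 9.28-fold (6.90 to 12.8). Intact and injured intervals stood apart for all 5.

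Kinases and spindle checkpoint genes were nearly unseen in the intact library, with 20 UMIs in all for 5 genes against 1321 in the injured one, 15.0-fold (9.68 to 24.7). Aurka, the kinase of the spindle poles, stood at 0.881 and 9.31 CPM. Plk1, a kinase needed from mitotic entry to cytokinesis, stood at 1.10 and 13.6 CPM, and the mitotic kinase Pbk at 0.881 and 18.2 CPM. The checkpoint kinase Bub1 had no intact UMI and 218 injured ones (10.9 CPM). Bub1 was 16.5-fold higher when 3 counts are taken for the intact library, with a ratio interval from 13.3 upwards. Its partner Bub1b, which holds back anaphase until all chromosomes are attached, stood at 1.54 and 14.1 CPM, 9.15-fold.

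The chromosomal passenger complex had the highest summed ratio of the 8 role groups, 28.2 (18.6 to 45.0), from 4.84 to 136 CPM, although its interval overlapped those of the kinases and of the spindle genes. Birc5 (survivin), the subunit that brings the complex to centromeres, stood at 3.52 and 82.5 CPM, 23.4-fold (14.4 to 41.1). Cdca8 (borealin) stood at 1.10 and 35.4 CPM, 32.1-fold. The catalytic subunit Aurkb had 1 intact UMI and 18.5 CPM in the injured library, so its ratio of 84.1 had a lower bound of 15.0.

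Centromere genes differed less in proportion, 8.40-fold (6.64 to 10.8) in sum. Cenpa, the histone H3 variant that marks the centromere, already stood at 10.1 CPM in the intact library and reached 56.8 CPM, 5.61-fold (4.18 to 7.71). The kinetochore motor Cenpe stood at 2.64 and 37.8 CPM, 14.3-fold. Cenpf, a kinetochore protein made in G2, stood at 2.86 and 36.7 CPM, 12.8-fold. The interval for Cenpa lay below that of Cenpe.

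Spindle genes and motors stood at 9.47 and 130 CPM in sum, 13.7-fold (10.1 to 19.0). Tpx2, which nucleates spindle microtubules and activates Aurka, stood at 2.42 and 32.9 CPM, and Nusap1, which bundles microtubules, at 2.64 and 25.3 CPM. Tacc3, which crosslinks spindle fibres, stood at 2.20 and 19.1 CPM, and Hmmr, a spindle assembly factor, at 1.10 and 18.1 CPM. The motor Kif11, which pushes the spindle poles apart, stood at 0.881 and 15.2 CPM. Kif2c, which takes microtubules apart at centromeres, had 1 intact UMI and 7.25 CPM in the injured library. Ckap2l had no intact UMI and 11.8 CPM in the injured library, 17.9-fold higher against 3 counts, with a ratio interval from 14.4 upwards. All 7 genes had ratios of at least 8.66 with intervals that overlapped one another.

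The genes of the central spindle and cytokinesis, which split the cell body after the chromosomes have parted, stood at 15.2 and 99.9 CPM in sum, 6.58-fold (5.17 to 8.49). Prc1, the bundler of the central spindle, stood at 2.86 and 37.5 CPM, 13.1-fold. The subunits of centralspindlin differed less, with Kif23 at 6.83 and 19.8 CPM, 2.89-fold (2.01 to 4.32), and Racgap1 at 3.08 and 18.7 CPM, 6.07-fold (3.57 to 11.2). The motor Kif20a stood at 0.660 and 9.16 CPM and the contractile ring protein Anln at 1.76 and 14.8 CPM. The interval of Kif23 lay below that of Prc1.

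Of the genes of the anaphase-promoting complex and mitotic exit, Ube2c, the enzyme that hands ubiquitin to the complex, stood at 3.52 and 91.4 CPM, and the activator Cdc20 at 5.28 and 31.4 CPM. Cdca3, a trigger of mitotic entry, stood at 1.98 and 20.9 CPM. Their summed ratio was 13.3 (10.0 to 18.0).

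The chromosome structure genes had the lowest summed ratio, 3.23 (3.03 to 3.44), and split into 2 kinds. Mki67 (Ki-67), the coat protein of mitotic chromosomes used as a marker of cycling cells, stood at 4.18 and 75.1 CPM, 18.0-fold (11.5 to 29.9). Top2a (chr11:98992943-99024189), which untangles DNA, stood at 3.96 and 74.1 CPM, 18.7-fold (11.8 to 31.6). The condensin subunits and Hmgb2 were well detected in intact endothelium. Smc2 stood at 20.5 and 78.0 CPM, 3.81-fold (3.09 to 4.75), and its partner Smc4 at 56.6 and 125 CPM, 2.20-fold (1.94 to 2.52). Hmgb2 stood at 146 and 394 CPM, 2.70-fold (2.49 to 2.93). Smc2 and Smc4 form the core of the same complex, and their ratio intervals did not overlap.

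Most of the injured signal came from EC_PROLIF, which held 79.3% of the UMIs of the 36 genes and 89.6% of those of the 31. The share was at least 80% for 30 genes and at least 90% for 18, the highest being 97.5% for Pbk, 97.4% for Nusap1 and 97.0% for Hmmr. It was lower for Smc4 (52.6%), Cks2 (62.3%), Hmgb2 (66.8%) and Smc2 (71.0%), and next came Ccnb2 (79.1%), Cenpa (79.9%) and Cdk1 (81.7%). For all 36 genes the share lay above the 21.0% of all endothelial UMIs that came from the class.

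**Figure D2:**
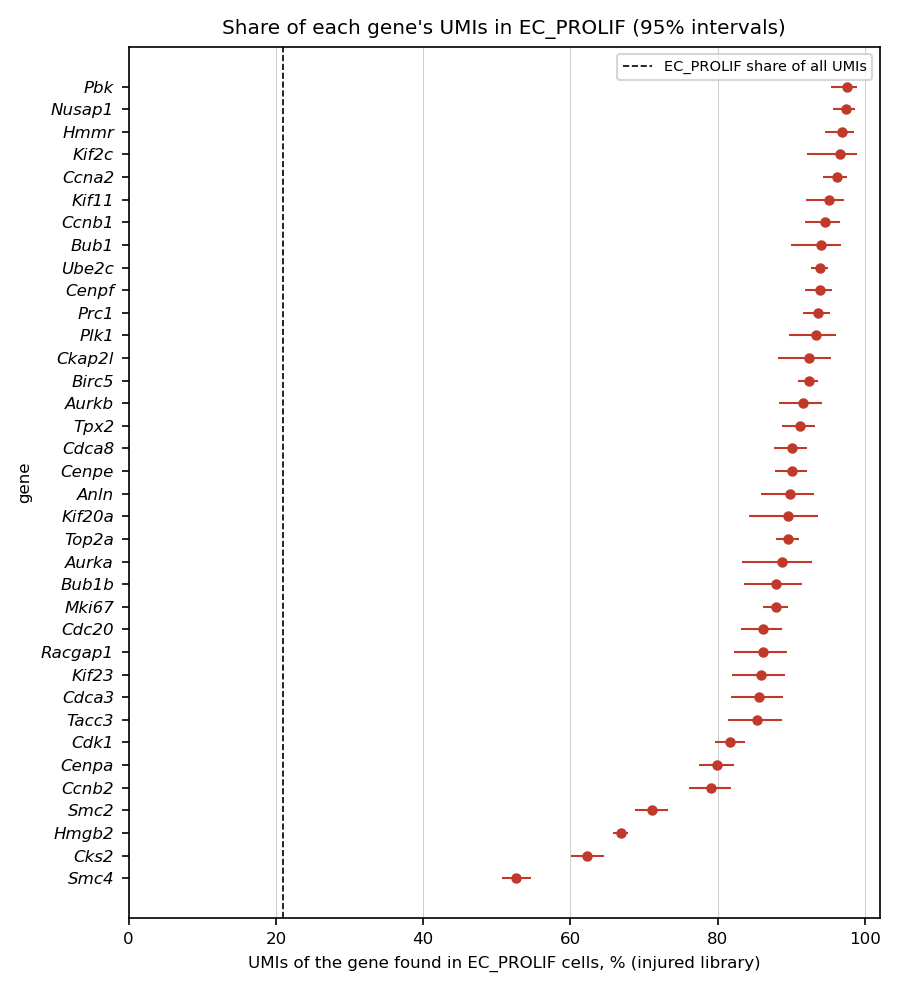
Percentage of the injured endothelial UMIs of each mitosis gene that came from EC_PROLIF cells, with exact 95% binomial intervals, and the share of all endothelial UMIs in that class as a dashed line at 21.0%. Smc4, Cks2, Hmgb2 and Smc2 lie at 52.6% to 71.0%, and 18 genes lie at 90% or more.

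Outside EC_PROLIF the mitosis genes were still higher in the injured library, by less. The sum of the 36 genes was 243 CPM in 707 intact cells and 447 CPM in 1112 injured cells, a ratio of 1.84 (1.73 to 1.96). For the 31 genes it was 32.5 and 125 CPM, 3.84-fold (3.25 to 4.58). For the 5 genes left out it was 211 and 322 CPM, 1.53-fold (1.43 to 1.64). At least 2-fold higher with 5 CPM added were 7 of the 36 genes, against 1.87% of 22443 genes, and none was 2-fold lower, against 2.90%. At a mean of 10 CPM or more, 1 of 5 mitosis genes, Cks2, was 2-fold higher and none lower, against 3.93% and 6.31% of 8211 genes. The median log2 ratio was 0.42 against 0.01 for all genes. Ratio intervals lay above 1 for 25 genes, held 1 for 11 and lay below 1 for none. Because 10 genes had no intact UMI there and many had few, the added 5 CPM draws most log2 ratios outside the class towards 0.

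The highest log2 ratios outside EC_PROLIF belonged to Cks2, Cdk1, Birc5, Ube2c and Ccnb2. Cks2 stood at 6.23 and 43.9 CPM, 7.05-fold (4.83 to 10.7), and Cdk1 at 1.11 and 16.8 CPM, 15.1-fold (6.39 to 46.9). Birc5 had no intact UMI among 707 cells and 126 injured ones (7.98 CPM), 12.0-fold higher against 3 counts (ratio interval from 9.59 upwards). Ube2c likewise had 0 and 112 UMIs (7.09 CPM), 10.6-fold against 3 counts (ratio interval from 8.51 upwards). Ccnb2 stood at 1.56 and 10.8 CPM, 6.92-fold (3.28 to 17.5). Top2a (1.33 and 9.76 CPM) and Mki67 (2.22 and 11.5 CPM) were the other 2 genes past 2-fold. In sum the chromosomal passenger complex had 2 intact and 227 injured UMIs there, a ratio of 32.3 (8.85 to 269). The cyclins and Cdk1 were 8.14-fold higher (5.96 to 11.4) and the chromosome structure genes 1.40-fold (1.31 to 1.51).

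The lowest log2 ratios there, among genes with at least 20 UMIs, belonged to Nusap1, Kif23, Aurka, Racgap1 and Anln. Nusap1 stood at 2.00 and 0.823 CPM outside EC_PROLIF, from 9 and 13 UMIs, a ratio of 0.411 (0.163 to 1.09). Kif23 stood at 4.89 and 3.55 CPM, a ratio of 0.725 (0.436 to 1.25), and its summed level in intact cells was 8.82 CPM in EC_BAR, 6.64 in EC_ART and 8.13 in EC_VEN-PV-, with no UMI in EC_VEN-PV+. Aurka (1.99-fold), Racgap1 (1.65-fold) and Anln (2.85-fold) had intervals that held 1. Within EC_VEN-PV+ Nusap1 had 5 intact and 3 injured UMIs, a ratio of 0.170 with an interval below 1 (0.0264 to 0.872). That interval was picked from many gene-by-class ratios without correction for their number. It also does not cover clumping of UMIs in few cells. Over the classes outside EC_PROLIF together none of these 5 differed beyond counting error, although all 5 were 2.89-fold to 10.6-fold higher over all classes.

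Each library kept 20 cells or more of 5 classes. Within these the 31 genes were 4.22-fold higher in EC_ART (2.58 to 7.37), 3.20-fold in EC_CAP-PV- (1.82 to 6.07), 3.13-fold in EC_VEN-PV- (1.80 to 5.89) and 2.53-fold in EC_VEN-PV+ (1.81 to 3.64). In EC_BAR the ratio was 1.41 and its interval held 1 (0.814 to 2.37), from 21 injured UMIs in the 36 cells kept. For the 31 genes the interval of EC_ART lay above that of EC_BAR, and the other pairs of classes overlapped. For all 36 genes the ratio was 1.87 in EC_BAR (1.52 to 2.28) and 1.86 in EC_ART (1.56 to 2.24). It was 1.47 in EC_CAP-PV-, 1.50 in EC_VEN-PV+ and 1.52 in EC_VEN-PV-, and all these intervals lay above 1. Cks2 was above 1 beyond counting error in 4 of the 5, from 4.39-fold in EC_CAP-PV- to 10.3-fold in EC_VEN-PV-, and was 3.29-fold in EC_BAR (0.913 to 11.4). Hmgb2 was within counting error of 1 in EC_ART, EC_CAP-PV- and EC_VEN-PV-, and was 1.46-fold higher in EC_BAR (1.07 to 1.98) and 1.27-fold in EC_VEN-PV+ (1.07 to 1.52).

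**Figure D3:**
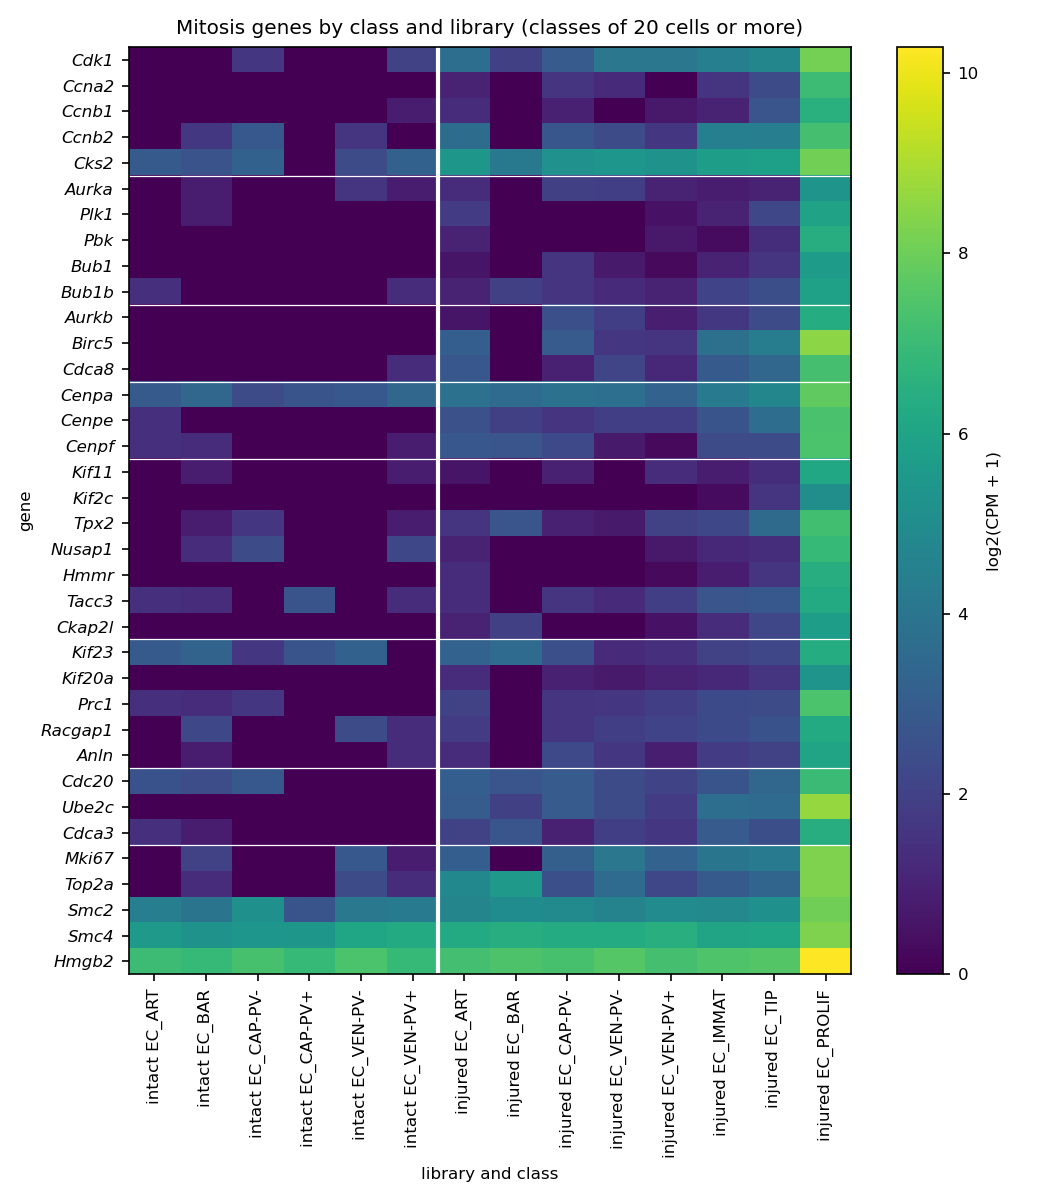
Colour gives log2(CPM + 1) of each mitosis gene in each class of at least 20 cells, with intact classes left and injured classes right of the white line, and white rows between roles. Injured EC_PROLIF is bright for every gene, Cks2 stands at 16.9 to 55.8 CPM in the other injured classes, and Hmgb2, Smc4 and Smc2 are seen in both libraries.

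The genes did not keep the same proportions in each injured class. In EC_PROLIF, Cdk1 stood at 282 CPM and Ube2c at 408. In EC_VEN-PV+, the class with most cells, Cdk1 stood at 15.8 CPM (12.4 to 19.8), seen in 65 of 362 cells, while Ube2c stood at 2.52 (1.30 to 4.41), Ccnb2 at 2.10 and Birc5 at 1.89. In EC_IMMAT and EC_TIP, classes with only 4 intact cells kept each, Cdk1 stood at 20.5 and 25.4 CPM, Birc5 at 12.9 and 19.8 CPM, and Ccnb2 at 20.7 and 20.3 CPM. For Cdk1 the intervals of the 3 classes overlapped, and for Birc5 and Ccnb2 those of EC_VEN-PV+ lay below those of EC_IMMAT and EC_TIP. The part of free RNA in these values was not tested, and the genes were chosen after their values were seen.

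Top2a had a class pattern of its own. Outside EC_PROLIF it stood at 27.1 CPM in injured EC_ART (20.4 to 35.2) and 45.1 CPM in EC_BAR (25.8 to 73.2), against 3.58 CPM in EC_VEN-PV+ (2.08 to 5.73) and 6.59 CPM in EC_IMMAT (4.34 to 9.58). In EC_ART 55 UMIs came from 22 cells, 7 of which had none of the 31 genes, and 1 of those cells held 13 Top2a UMIs. In EC_BAR, where Mki67, Birc5 and Ccnb2 had no UMI, 16 Top2a UMIs came from 8 cells, 4 of them without any of the 31 genes. All 139 EC_PROLIF cells with Top2a held at least 1 of the 31.

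To compare cells of unlike depth, each cell of at least 3000 UMIs was thinned to 3000, which left out 236 intact and 51 injured endothelial cells. At least 2 of the 36 genes were seen in 54 of 482 intact cells (11.2%, interval 8.53 to 14.4) and in 447 of 1223 injured cells (36.5%, 33.8 to 39.3). Without thinning the shares were 26.2% and 76.5%. Hmgb2 and Smc4 made up much of the intact share, since outside EC_PROLIF Hmgb2 was seen in 30.3% of thinned intact and 34.9% of injured cells, and Smc4 in 15.5% and 19.7%. Counting only the 31 genes, at least 2 were seen in 5 of 482 intact cells (1.04%) and in 187 of 1223 injured cells (15.3%).

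In EC_PROLIF 154 of 157 thinned injured cells (98.1%) held at least 2 of the 36 genes, and 135 (86.0%) at least 2 of the 31. Outside EC_PROLIF, 10.3% of 476 intact cells and 27.5% of 1066 injured cells held at least 2 of the 36, with intervals of 7.71 to 13.4 and 24.8 to 30.3. For the 31 genes it was 1 of 476 intact cells (0.210%, 0.00532 to 1.16), a cell of EC_IMMAT, and 52 of 1066 injured cells (4.88%, 3.66 to 6.35). No cell type known to lack these genes was at hand for a background share. The intact cells outside EC_PROLIF, at the same 3000 UMIs but from a library of median 4436 UMIs against 10725, are the nearest measure.

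By class the share of injured cells with at least 2 of the 31 genes was 8.66% in EC_IMMAT (5.51 to 12.8), 7.37% in EC_TIP (3.01 to 14.6), 5.17% in EC_VEN-PV-, 4.58% in EC_ART, 4.23% in EC_CAP-PV- and 3.03% in EC_BAR. It was 1.98% in EC_VEN-PV+ (0.799 to 4.03), whose interval lay below that of EC_IMMAT and overlapped the others. In the 5 classes compared within, no intact cell reached 2 of the 31, which allows a share of up to 1.81% in EC_VEN-PV+ and up to 6.82% in EC_VEN-PV-. None of the 1066 injured cells outside EC_PROLIF held 10 or more of the 36 genes, and 9 held at least 5 of the 31.

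**Figure D4:**
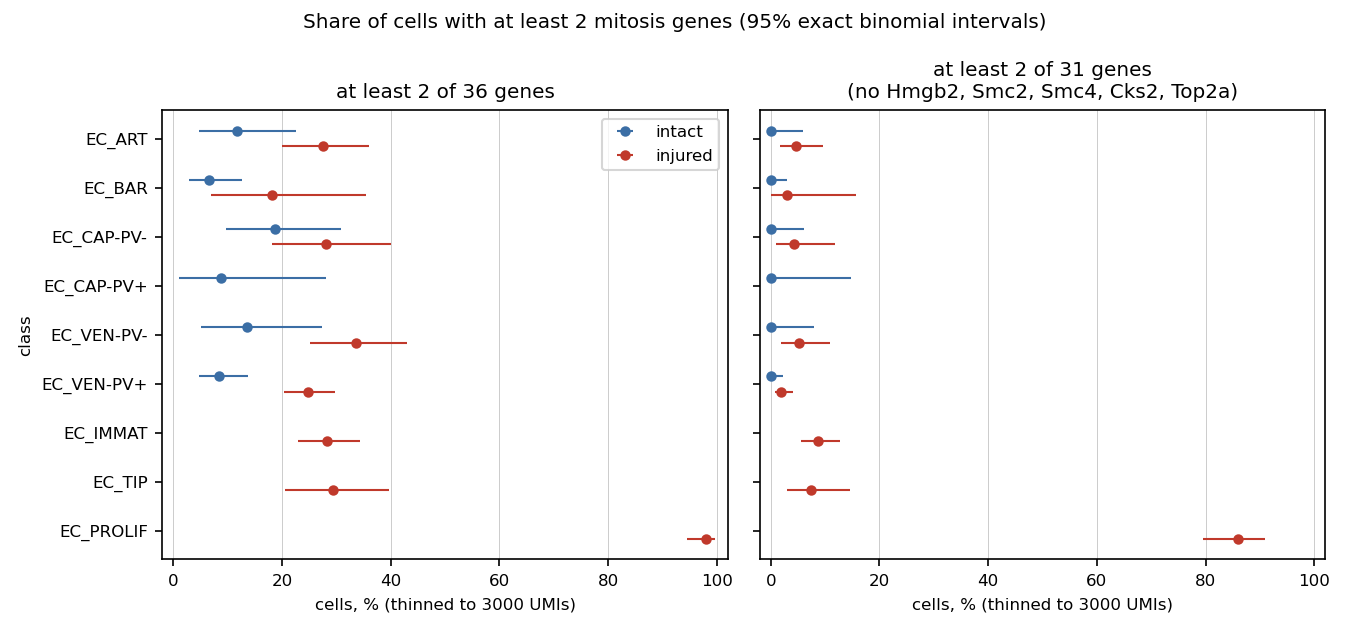
Percentage of cells, thinned to 3000 UMIs, with at least 2 mitosis genes in each class (intact blue, injured red, exact 95% binomial intervals), for 36 genes on the left and 31 on the right. Injured EC_PROLIF lies at 98.1% and 86.0%, the other injured classes drawn lie at 18.2% to 33.6% on the left and at 1.98% to 8.66% on the right.

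Apart from Hmgb2 and Smc4, each gene was seen in at most 11.6% of the cells outside EC_PROLIF. Cks2 was seen in that share of thinned injured cells and in 1.26% of intact cells, and in 50.3% of EC_PROLIF cells. Cdk1 was seen in 4.32% and 0.42% outside and in 51.0% inside, and Cenpa in 3.66% and 2.52% outside and in 36.9% inside. Birc5 and Ube2c were each seen in 18 of 1066 injured cells and in none of the 476 intact ones, which allows up to 0.630%. Kif23 was seen in 0.94% of injured and 1.26% of intact cells outside the class. Hmmr, Kif2c, Nusap1 and Pbk were each seen in 1 injured cell outside it, against 11.5% to 24.8% of the cells inside it.

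Cells of EC_PROLIF differed among themselves. After thinning they held a median of 12 of the 36 genes, with quartiles of 5 and 16 and a highest count of 26. Of the 157 cells 91 held at least 10 and 35 held fewer than 5. The DNA replication list of 40 genes, which serve the S phase that comes before mitosis, gave a median of 7 genes per cell. Cells with fewer than 5 mitosis genes held a median of 8 replication genes, and cells with at least 10 mitosis genes held 6. Both at least 5 replication genes and at least 10 mitosis genes were seen in 69 cells, at least 5 replication but fewer than 5 mitosis genes in 28, fewer than 5 replication but at least 10 mitosis genes in 22, and fewer than 5 of each in 7. These counts describe cells of 1 library that share their source, and a gene missed at 3000 UMIs is not absent from the cell.

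Mitosis genes fell on both sides of this split. The 58 cells with a Cenpa UMI held 5.47 ± 3.17 replication genes (mean ± SD over cells), against 8.89 ± 4.35 in the 99 without. Cells with Ccnb2 (5.60 against 8.57), Cenpf (6.12 against 8.56) and Plk1 (5.70 against 8.02) likewise held fewer replication genes. Cells with Ccna2 held more, 8.70 against 7.12, as did cells with Kif11 (8.78 against 7.27) and with Cdk1 (8.35 against 6.87). For Mki67 (7.73 against 7.53) and Birc5 (7.55 against 7.73) the means lay closer together. For all of these genes but Cenpa the difference was smaller than the SD between cells of either set, and for Cenpa it lay between the SDs of its sets.

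**Figure D5:**
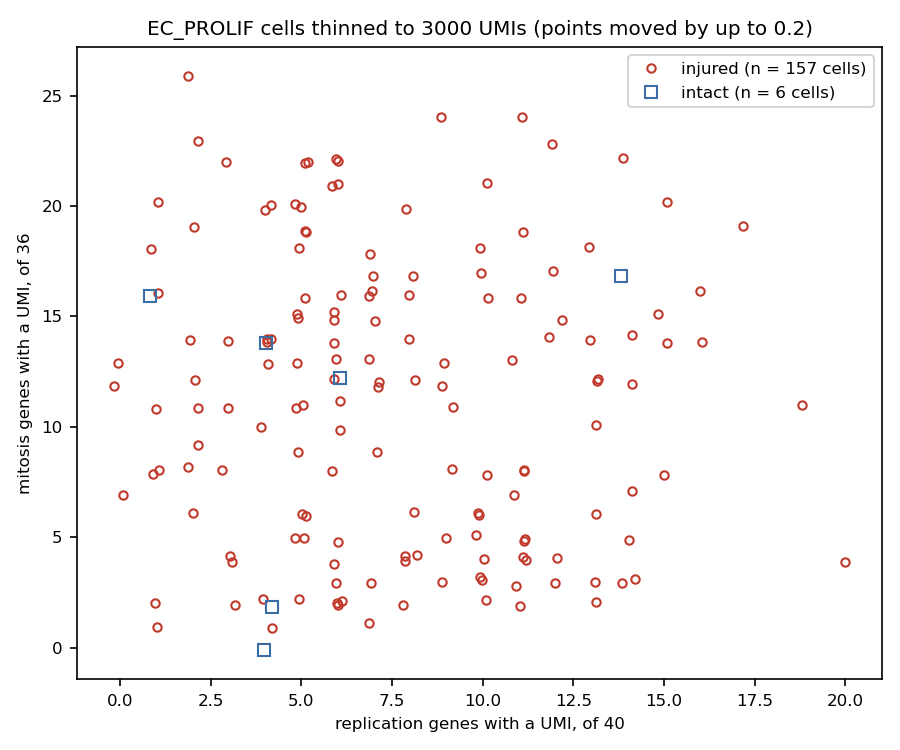
Each point is an EC_PROLIF cell thinned to 3000 UMIs (157 injured circles, 6 intact squares, moved by up to 0.2 for visibility), with the number of replication genes seen of 40 on the x axis and of mitosis genes seen of 36 on the y axis. Injured cells spread widely, with 28 cells at 5 or more replication and fewer than 5 mitosis genes. Another 22 lie at fewer than 5 replication and at least 10 mitosis genes, and 4 of the intact squares lie at 12 mitosis genes or more.

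Many other genes of division were higher too. Of 101 further genes of chromosome segregation and the spindle, 48 were at least 2-fold higher in the injured endothelium, 52 lay between and 1 was lower, against 2.43% higher and 3.09% lower of all genes. Their median log2 ratio was 0.92. Those named by rule were Cks1b, a second docking protein of Cdk1 (8.15 and 79.9 CPM), the shugoshin Sgo2a, which guards cohesion at centromeres (1.10 and 23.9 CPM), the kinetochore subunit Spc24 (4.62 and 34.1 CPM) and the microtubule regulator Stmn1 (68.7 and 251 CPM). At the other end stood Pttg1 (securin), which holds back the cut of cohesin, at 78.4 and 33.4 CPM, a ratio of 0.426 (0.374 to 0.486), and the tubulin Tuba1b, whose reads near-identical tubulin genes may share, at 338 and 185 CPM. Only 21.7% of the injured UMIs of Pttg1 came from EC_PROLIF, near the 21.0% of all UMIs. Outside EC_PROLIF 4 of the 101 genes were at least 2-fold higher and 3 lower, against 1.87% and 2.90% of all genes there. Their median log2 ratio was 0.11 there, and the added 5 CPM draws ratios of genes at low CPM towards 0.

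Of the 40 replication genes 21 were at least 2-fold higher and none was lower, against 2.43% and 3.09% of all genes, with a median log2 ratio of 1.03. Outside EC_PROLIF 2 of the 40 were higher and none lower, against 1.87% and 2.90%. Pclaf, a partner of the replication clamp, stood at 5.06 and 84.8 CPM, 16.7-fold (11.1 to 26.5), and the helicase subunit Mcm5 at 4.40 and 35.7 CPM. The nucleotide synthesis genes Tk1 (0.440 and 23.3 CPM, from 2 intact UMIs) and Tyms (15.4 and 70.9 CPM) were also among the highest. The lowest were Usp1 at 42.5 and 43.6 CPM and Pcna, the clamp itself, at 74.4 and 53.7 CPM, a ratio of 0.722 (0.638 to 0.818).

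Of 13 regulators of the G1 phase 2 were at least 2-fold higher and 3 lower, against 2.43% and 3.09% of all genes, and the median log2 ratio was -0.12. Cdk4, the kinase of cyclin D, stood at 56.1 and 162 CPM, 2.88-fold (2.53 to 3.28), and 30.4% of its injured UMIs came from EC_PROLIF. The related kinase Cdk6 stood at 18.5 and 30.0 CPM, the inhibitor Cdkn2c at 15.9 and 25.4 CPM, and Ccnd3 at 56.8 and 58.5 CPM. The cell cycle inhibitor Cdkn1a (p21) was lower, at 211 and 79.1 CPM, a ratio of 0.375 (0.346 to 0.406), and the cyclin Ccnd2 stood at 492 and 46.7 CPM, a ratio of 0.0950 (0.0879 to 0.103).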

How the data were processed

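The matrices, deposited by the authors, hold raw UMI counts for each gene in each barcode, and a deposited table of the authors gives cell classes. Cell Ranger 3.0.2 made the matrices, per the file headers. The submitters' processing notes list Cell Ranger 6.1.2, Seurat 4.0.1, mm10 and GRCm38. No filter on cells beyond the authors' classes and the shared barcodes was used. CPM are UMIs summed over cells, per 1000000 of their total. Shares, CPM and ratios carry exact Clopper-Pearson, Poisson and conditional binomial 95% intervals. Only the ratio intervals were tested on simulated data, with Poisson counts per gene that hold no clumping of UMIs in cells. For a share of 0 the limit is 3 counts of the total. Thinning drew UMIs without replacement (seed 1). Scrublet through scanpy 1.11.5 called 3 of 1618 intact and 4 of 2023 injured barcodes doublets, and these were kept. So few calls leave the part of doublets untested. Scripts used numpy 2.4.6, scipy 1.17.1 and pandas 2.3.3. Positions are from GENCODE on GRCm38, matched by gene ID. The members, lists and class markers were chosen with earlier results of these data known. All 36 genes are described by role. Outside EC_PROLIF the 5 highest and 5 lowest log2 ratios with at least 20 UMIs are named, and per further list up to 4 highest and 2 lowest at 20 CPM or more. Mki67, Top2a, Hmgb2, Smc4 and other names in the class and cell paragraphs were chosen after their values were seen.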

Additional observations from a re-analysis of the deposited data

Results flagged for a closer look

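Cells that the authors' table left without a class were not used in the comparisons and held mitosis genes more often in the injured library. After thinning to 3000 UMIs, at least 2 of the 36 genes were seen in 114 of 348 such injured cells (32.8%) and in 37 of 470 intact ones (7.87%). For the 31 genes it was 65 of 348 (18.7%) and 6 of 470 (1.28%). In the 65 injured cells summed fibroblast markers stood at 8766 CPM and pan-endothelial markers at 2838 CPM, against 20317 and 2001 CPM in the other 283. Myeloid markers were at 5.66 CPM in the 65 cells, lymphatic endothelial markers at 533 CPM, and pericyte and smooth muscle markers at 2136 CPM. Markers of EC_TIP stood at 413 CPM in the 65 and 144 CPM in the 283. In the 6 intact cells lymphatic endothelial markers stood at 3146 CPM and pan-endothelial markers at 2485 CPM, against 3880 and 1424 CPM in the other 464. Fibroblast markers stood at 1067 CPM in the 6 and 11845 CPM in the 464, and lymphoid markers at 270 and 11.9 CPM.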

How the results depend on the processing

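With 1 CPM added in place of 5 the median log2 ratio was 3.10. After thinning cells to 3000 UMIs it was 1.50, and the summed ratios of the 36 genes were 3.71 and, outside EC_PROLIF, 1.72. With the mean of per-cell CPM the median was 1.33 and the summed ratio 3.58. Weighting equally the classes with at least 20 cells in both libraries leaves out EC_PROLIF, EC_IMMAT, EC_TIP and EC_CAP-PV+. It gave a median of 0.26, a summed ratio of 1.63, and 3 genes at least 2-fold higher. Nusap1 then turned to a log2 ratio of -0.37. With all shared barcodes left out the summed ratio was 4.55, and with the shallow partners kept 4.95. With 31 genes it was 13.0, and 3.84 outside EC_PROLIF.

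Shares of cells followed the depth and the genes counted. Given as injured and intact, then injured and intact outside EC_PROLIF, they were 17.7%, 1.87%, 6.94% and 1.05% for at least 3 genes, 22.1%, 4.15%, 12.1% and 3.55% at 1500 UMIs, and 55.4%, 25.2%, 48.1% and 23.7% at 5000 UMIs. They were 76.5%, 26.2%, 73.1% and 25.2% without thinning and 15.3%, 1.04%, 4.88% and 0.210% for the 31 genes. In each of these settings the injured share was the higher. Leaving out Scrublet's doublets, or cells of 5% mitochondrial UMIs or more, kept both summed ratios and all 4 shares within their counting intervals, and another seed for thinning kept the 4 shares. At least 2-fold higher were 35 genes without the cells of 5% mitochondrial UMIs or more, 30 after thinning and 31 with per-cell CPM. No paired analysis was possible because each condition was 1 library. Depth limits the intact values, since 16 genes had fewer than 10 intact UMIs.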

Other observations

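A class named INTERMEDIATE, left out of the endothelial sums, held 46 intact and 88 injured cells of low depth (medians of 1284.5 and 1844 UMIs). Its 31 mitosis genes stood at 194 CPM (128 to 282) in the intact and 383 CPM (309 to 470) in the injured library, a ratio of 1.97 (1.27 to 3.15). Fibroblast markers stood there at 3917 and 1452 CPM and pan-endothelial markers at 5283 and 4865 CPM. Myeloid markers stood at 14.4 and 578 CPM, and pericyte and smooth muscle markers at 2235 and 166 CPM. The part of these cells in the ratio was not tested. Cenpf (58.3 CPM), Mki67 (49.9 CPM) and Cenpe (45.8 CPM) were among the genes seen in its injured cells. Only 9 intact and 25 injured cells of this class had 3000 UMIs, and at least 2 of the 31 genes were seen in 0 and 1 of them.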
